A study of Homo sapiens with 4 samples.

Results

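The genes described here are the MHC class I antigen presentation genes of the human gastric cancer line HGC27, an established cell line. They are 9 of the 60666 rows of the expression table and were taken by gene name: the heavy chains HLA-B, HLA-C, HLA-E and HLA-F, the light chain B2M, the peptide transporter subunits TAP1 and TAP2, the loading factor TAPBP, and the transactivator NLRC5. RNA sequencing was performed on 2 samples that received 25 mM lactate in glucose-free medium for 24 h (lactate) and on 2 samples in the same glucose-free medium without lactate (noglu). Both groups were the same line in DMEM with serum and antibiotics, so every sample lacked added glucose and the comparison was of lactate against no lactate in that state. All values are given in TPM, a length-scaled share of the transcripts of a library, from which sequencing depth cannot be read. A TPM value is a share of a bulk sample, so fewer cells with a transcript and less transcript per cell cannot be told apart.

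MHC class I molecules display peptides from inside the cell on its surface, where CD8+ T cells and natural killer cells read them. A heavy chain folds with beta-2-microglobulin in the endoplasmic reticulum and is held by tapasin beside the TAP transporter, which brings in peptides cut by the proteasome. In most cell types these genes are switched on together through NLRC5, interferon-regulated factors and NF-kB at their promoters, and tumor cells often express them at low levels.

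The 4 columns summed to between 995439 and 996089 TPM, with 25075 and 23457 rows above 0 in the lactate libraries and 25764 and 23272 in the noglu libraries. Of the labelled cell type's markers, 5 of 6 gastric mucosa genes were at 0 in every library, and 3 of 7 epithelial genes, EPCAM, KRT18 and KRT19, stayed under 1 TPM in every library, whereas VIM, a mesenchymal-type filament gene, lay between 2747 and 2984 TPM. The 7 epithelial markers summed to 13.6 and 11.5 TPM in lactate, against 6.48 and 4.96 TPM in noglu, and KRT8, a keratin gene, was called up with 6.07 and 6.0 TPM in lactate, against 2.08 and 1.87 TPM in noglu (log2 fold change 1.24, limma adjusted p = 0.0328 in the test described in the next paragraph). The fibroblast genes DCN and LUM were also abundant, and the summed level of the 3 fibroblast markers was 334.5 and 400.0 TPM in lactate, against 371.4 and 394.8 TPM in noglu. DCN and LUM carry that sum, and the remaining marker, the receptor gene PDGFRA, was called up with 15.54 and 18.29 TPM in lactate, against 6.43 and 6.59 TPM in noglu (log2 fold change 1.25, limma adjusted p = 0.0292). KRT8 and PDGFRA were thus higher in the same libraries as the class I genes, and their part in the results was not tested. White blood cells, which carry much class I, were almost without markers: 7 of 8 stayed under 1 TPM in every library, CD3E and MS4A1 were at 0, and the 8 summed to 4.03 and 4.60 TPM in lactate, against 2.76 and 2.47 TPM in noglu.

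To find out which class I genes differed with lactate, the 15051 rows that averaged 1 TPM or more over the libraries were tested on the log2(TPM + 1) scale with limma, and a row was called at a Benjamini-Hochberg adjusted p under 0.05. All 9 members passed this filter. HLA-B, HLA-C, HLA-E and TAP1 rose with lactate, by 1.86- to 2.24-fold in mean TPM. These were 4 of 9 members (44.4%), against 4.69% of all tested rows called up. None of the 9 was called down, against 1.9% of all tested rows, although 7 of 9 had an unadjusted p under 0.05 in either direction and 28.2% of all tested rows did so too. Both lactate libraries lay above both noglu libraries in 7 of 9 members (77.8%), against 37% of all tested rows, and below them in 1 of 9, TAP2, against 21.3%. The median log2 fold change was 0.86 over the 9 members and 0.08 over all tested rows. The members, and the lists of other genes given further on, were chosen with earlier results of these data known. Their shares and medians beside those of all tested rows are therefore descriptions and do not test them as sets. Over all tested rows 706 were called up and 286 down, so that 71.2% of calls were up, whereas after median-ratio scaling of the libraries 377 were up and 398 down, or 48.6% up. HLA-B, HLA-C, HLA-E and TAP1 remained called under that scaling, with limma adjusted p between 0.0336 and 0.0424. With any 1 library left out, none of the 4 was called and the limma adjusted p lay between 0.135 and 0.283, while the log2 fold changes of the 4 genes stayed between 0.73 and 1.21. With all libraries kept, the 4 calls were also lost without the filter on low values (limma adjusted p 0.108 to 0.120) and without the variance trend (0.0598 to 0.0722).

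**Figure D1:**
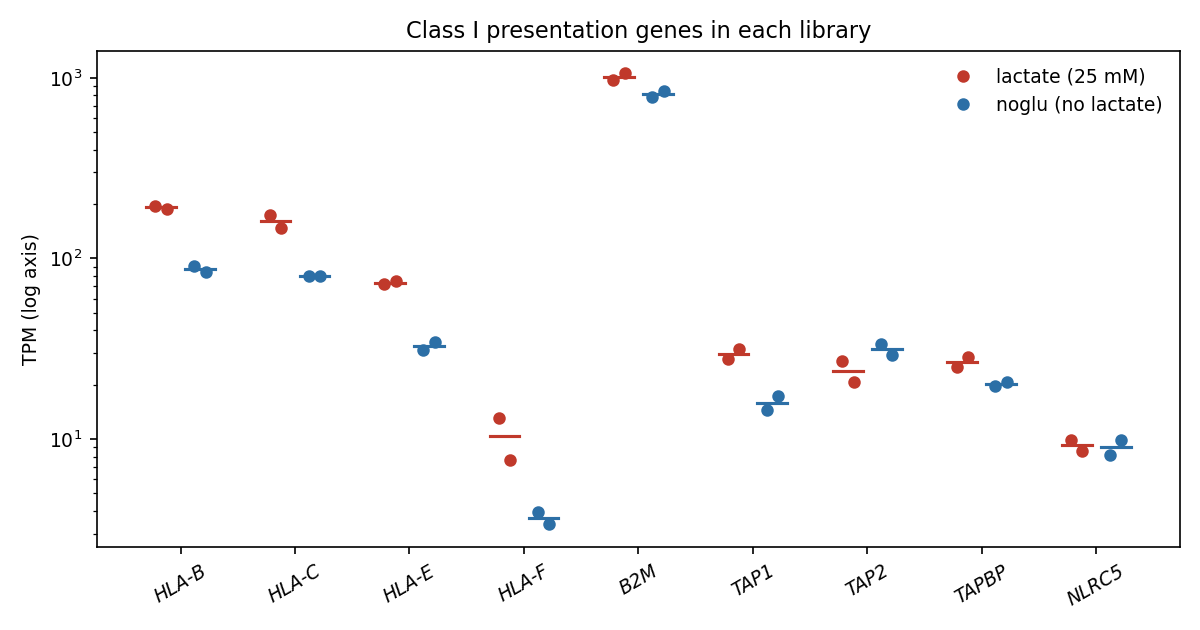
TPM of each class I presentation gene (log axis) in the 2 lactate libraries (red) and the 2 noglu libraries (blue), with a line at each group's mean. Lactate points lie above noglu points for HLA-B, HLA-C, HLA-E, HLA-F, B2M, TAP1 and TAPBP, below them for TAP2, and among them for NLRC5.

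Of the 4 heavy chains, HLA-B, HLA-C and HLA-E rose about 2-fold with lactate. HLA-B, a classical heavy chain that presents peptides to CD8+ T cells, had 196.09 and 186.94 TPM in lactate, against 91.31 and 84.59 TPM in noglu. Its lower lactate library was above the higher noglu library by more than the distance within either group. The means were 191.5 ± 6.47 TPM in lactate and 87.95 ± 4.75 TPM in noglu (SD, n = 2 each), a log2 fold change of 1.11 ± 0.09 (SE; limma adjusted p = 0.0244). HLA-C, a classical heavy chain and the main ligand of killer immunoglobulin-like receptors on natural killer cells, had 173.44 and 147.68 TPM in lactate, against 79.53 and 79.95 TPM in noglu. Here the lactate libraries were farther from each other than the noglu libraries were, yet the groups remained well apart. The log2 fold change of HLA-C was 1.00 ± 0.11 (SE; limma adjusted p = 0.0301).

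HLA-E, a nonclassical heavy chain that presents leader peptides of other class I chains to the CD94/NKG2 receptors of natural killer cells, had 71.94 and 75.02 TPM in lactate, against 31.08 and 34.54 TPM in noglu. The libraries of each group lay close together, without overlap between groups. The log2 fold change of HLA-E was 1.14 ± 0.10 (SE; limma adjusted p = 0.0244). HLA-F, another nonclassical heavy chain, had 13.07 and 7.63 TPM in lactate, against 3.96 and 3.37 TPM in noglu. Both lactate libraries were again higher, but they differed from each other by more than the lower of them differed from the noglu libraries. HLA-F had the highest log2 fold change of the 9 members, 1.24, with a 95% interval from 0.58 to 1.90, and it was not called (limma adjusted p = 0.0554).

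The heavy chains made up similar shares of their sum in both groups. Their sum, which covers these 4 genes only, was 454.5 and 417.3 TPM in lactate, against 205.9 and 202.5 TPM in noglu. HLA-B made up 43.1% and 44.8% of that sum in lactate, against 44.4% and 41.8% in noglu, and HLA-E made up 15.8% and 18.0%, against 15.1% and 17.1%. These shares overlapped between the groups. The HLA-C share was 38.2% and 35.4% in lactate, against 38.6% and 39.5% in noglu, which did not overlap. A two-sided exact permutation test of such a single value per library cannot give a p below 0.33 with 2 libraries against 2, so these sums and shares, and the ratios given further on, are descriptions. HLA genes resemble each other and vary between people, so reads may be exchanged between them. Of all 50-base stretches of a GENCODE 29 transcript, 2.54% for HLA-B, 6.71% for HLA-C, 5.13% for HLA-E and 1.7% for HLA-F were also found in transcripts of other genes, and alleles of this line that differ from these transcripts are not covered by that count. The GENCODE 29 model of HLA-B also runs across HLA-C on the same strand. The split of reads between these genes is uncertain.

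In RefSeq (GRCh38.p14) all heavy chain genes lie in the MHC on chromosome 6: HLA-F at chr6:29723434-29738532 and HLA-E at chr6:30489509-30494194 on the plus strand, HLA-C at chr6:31268749-31272092 and HLA-B at chr6:31353875-31357179 on the minus strand. Promoter sequences from RefSeq were matched for 7 of the 9 members, HLA-E and NLRC5 being the ones without. The stretches from 195 to 41 bases before the annotated start are shown for the heavy chains and for B2M so that their shared elements can be read one above the other. HLA-B is chr6:31357220-31357374 and HLA-C is chr6:31272133-31272287, both minus strand; HLA-F is chr6:29723239-29723393 and B2M is chr15:44711322-44711476, both plus strand.
HLA-B: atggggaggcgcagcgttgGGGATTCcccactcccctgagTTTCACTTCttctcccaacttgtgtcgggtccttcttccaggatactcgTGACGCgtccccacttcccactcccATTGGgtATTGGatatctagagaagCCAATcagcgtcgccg
HLA-C: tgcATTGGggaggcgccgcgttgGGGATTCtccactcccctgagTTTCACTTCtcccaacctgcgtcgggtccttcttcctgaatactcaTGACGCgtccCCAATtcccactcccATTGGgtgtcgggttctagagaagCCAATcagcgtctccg
HLA-F: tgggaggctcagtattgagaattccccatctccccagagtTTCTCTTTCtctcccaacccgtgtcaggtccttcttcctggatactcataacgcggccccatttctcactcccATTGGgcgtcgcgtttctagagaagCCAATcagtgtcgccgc
B2M: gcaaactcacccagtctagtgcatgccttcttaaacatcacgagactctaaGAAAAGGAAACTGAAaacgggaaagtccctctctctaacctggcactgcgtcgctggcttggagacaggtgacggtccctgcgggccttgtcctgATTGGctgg
Capitals mark every match, on either strand, to the motifs searched. These were an interferon-stimulated response element (ISRE) form GAAANNGAA, present in 8.1% of 35116 RefSeq promoters of 250 bases before to 50 bases after a start, an interferon-gamma activated site (GAS) form TTCNNNGAA (7.7%), the Y box core CCAAT (34.6%), the X2 core TGACGC (9.1%), an NF-kB site (kB) form GGGANNTCC (4.8%) and a TEAD form GGAATG (14%). A second ISRE form GAANNGAAA (7.7%) and a second kB form GGGATTC (3.3%) were added after the promoters had been read. HLA-B and HLA-C held the second kB form at 176 and 172 bases before the start, the second ISRE form at 155 and 151, the X2 core at 106 and 105, and a Y box core at 56 in both; their other Y box cores were at 81 and 74 in HLA-B and at 192, 95 and 80 in HLA-C. HLA-F held an ISRE form at 155 and Y box cores at 82 and 57, and none of the X2 or kB letters searched. B2M held 2 overlapping ISRE forms at 144 and 138, a Y box core at 49, and the only TEAD form of the 7 promoters, 1 base before the start. A match is a run of letters in a window and does not show that a factor binds there.

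**Figure D2:**
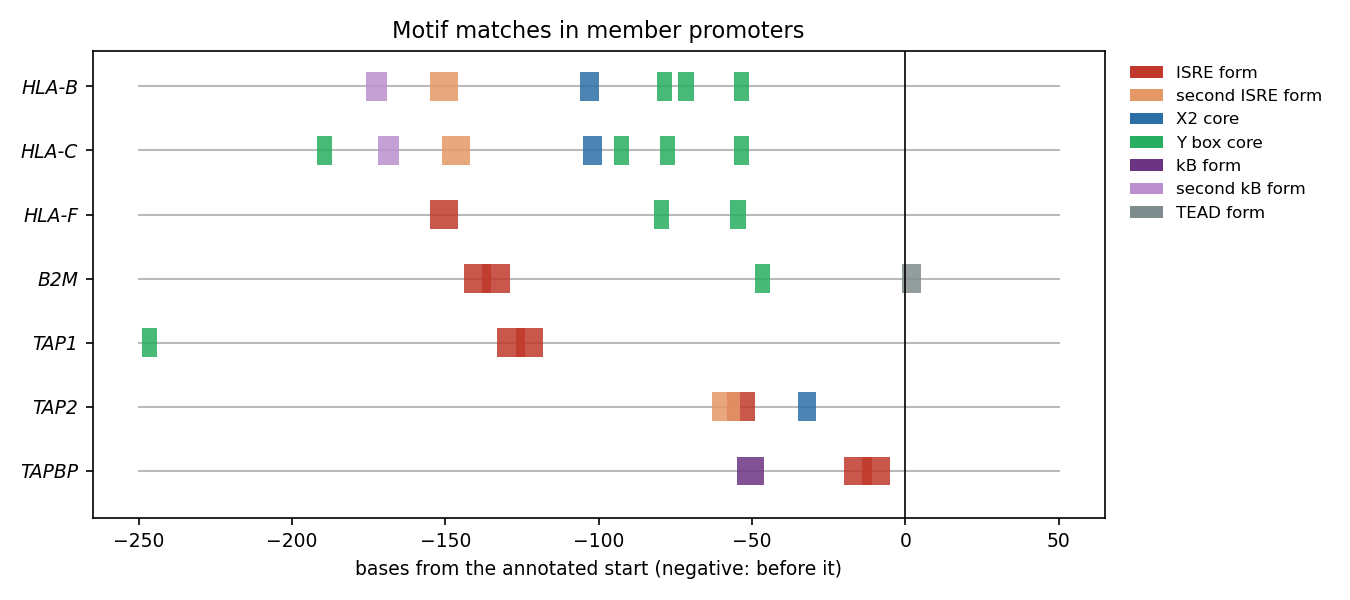
Matches to the motif forms in 7 member promoters, by distance in bases from the first annotated start (vertical line; negative is before it), each grey line being the window searched. HLA-B and HLA-C both carry the second kB form, the second ISRE form and the X2 core in that order toward the start, and HLA-C has a further Y box core before the first of these.

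The light chain was higher in both lactate libraries but was not called. B2M (chr15:44711517-44718145, plus strand) encodes the light chain with which heavy chains fold in the endoplasmic reticulum. It had 973.0 and 1059 TPM in lactate, against 782.0 and 847.5 TPM in noglu. The groups did not overlap, and their gap was larger than the distance between the libraries of either group. The log2 fold change was 0.32 ± 0.09 (SE), with a 95% interval from 0.09 to 0.54, and B2M was not called (limma adjusted p = 0.0940). It was the most abundant member, above 99.1% of tested rows in lactate and 98.9% in noglu. Per unit of heavy chain transcript there was less B2M with lactate: its ratio to the sum of the 4 heavy chains was 2.14 and 2.54 in lactate, against 3.80 and 4.19 in noglu. B2M remained in excess over these 4 heavy chains in all 4 libraries.

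Of the transporter subunits, TAP1 rose and TAP2 was not called. TAP1 and TAP2 form a heterodimer that pumps peptides into the endoplasmic reticulum. TAP1 had 27.75 and 31.41 TPM in lactate, against 14.50 and 17.35 TPM in noglu. The groups were separate, and the log2 fold change was 0.86 ± 0.14 (SE; limma adjusted p = 0.0390). TAP2 had 26.97 and 20.69 TPM in lactate, against 33.79 and 29.14 TPM in noglu. Both lactate libraries were lower, but the gap between groups was smaller than the distance between the libraries of either group, and TAP2 was not called (log2 fold change -0.39, 95% interval -0.81 to 0.02, limma adjusted p = 0.190). The ratio of TAP1 to TAP2 was 1.03 and 1.52 in lactate, against 0.429 and 0.595 in noglu, so TAP1 was the more abundant transcript in both lactate libraries and TAP2 in both noglu libraries. Of the 50-base stretches of TAP2, 35.8% also occur in transcripts of other genes. TAP2 overlaps the gene AL669918.1 on the same strand, which had 8.20 and 5.92 TPM in lactate, against 7.72 and 6.63 TPM in noglu. How reads were divided between these overlapping genes bears on the TAP2 level, and its part in the result was not tested.

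TAPBP encodes tapasin, which bridges the heavy chain to TAP and edits the bound peptides. It had 25.07 and 28.59 TPM in lactate, against 19.64 and 20.71 TPM in noglu. The groups did not overlap, and the log2 fold change of 0.39 (95% interval 0.10 to 0.69) was not called (limma adjusted p = 0.106). Relative to TAP1 there was less tapasin transcript with lactate, a ratio of 0.903 and 0.910 in lactate, against 1.35 and 1.19 in noglu.

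TAP2 (chr6:32821831-32838739), TAP1 (chr6:32845209-32853704) and TAPBP (chr6:33299694-33314078) all lie on the minus strand of chromosome 6. Their promoters are shown because their proteins work in 1 loading complex while TAP1 alone of them was called. TAP1 is chr6:32853755-32853854 from 150 to 51 bases before its first start, TAP2 is chr6:32838750-32838849 from 110 to 11, and TAPBP is chr6:33314079-33314178 from 100 to 1, all minus strand.
TAP1: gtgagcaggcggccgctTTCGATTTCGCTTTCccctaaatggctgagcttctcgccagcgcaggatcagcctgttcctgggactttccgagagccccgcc
TAP2: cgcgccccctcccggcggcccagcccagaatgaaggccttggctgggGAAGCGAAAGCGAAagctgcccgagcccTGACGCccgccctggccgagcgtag
TAPBP: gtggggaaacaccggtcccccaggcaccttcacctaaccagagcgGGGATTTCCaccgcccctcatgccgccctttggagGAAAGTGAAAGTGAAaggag
Capitals mark the same motif forms as in the heavy chain promoters. All 3 held ISRE letters: TAP1 had 2 overlapping ISRE forms at 133 and 127 bases before the start, TAP2 had 1 at 58 overlapping the second ISRE form at 63, and TAPBP had 2 overlapping ISRE forms at 20 and 14. TAP1 also held a Y box core at 249, which lies before the stretch shown. TAP2 held the X2 core at 35 and TAPBP the kB form at 55. At a second annotated start, TAP1 also had the GAS form at 189 and the kB form at 38. An ISRE form was found in front of members that were called (TAP1) and of members that were not (TAP2, TAPBP, B2M and HLA-F), and those of HLA-B and HLA-C held the second form instead.

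NLRC5 (chr16:56989557-57083520, plus strand), the transactivator that assembles on the X and Y boxes of class I promoters, had 9.94 and 8.60 TPM in lactate, against 8.18 and 9.83 TPM in noglu. The groups overlapped, and the log2 fold change was 0.04, with a 95% interval from -0.34 to 0.42 (limma adjusted p = 0.892). The interval reaches neither the log2 fold change of HLA-B nor that of HLA-E, but the difference between these genes was not tested. The sign of the NLRC5 value turned under median-ratio scaling (-0.06), without lactate replicate 1 (-0.05) and without noglu replicate 1 (-0.08).

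In lactate the members ranked B2M, HLA-B, HLA-C, HLA-E, TAP1, TAPBP, TAP2, HLA-F and NLRC5 from the highest mean TPM to the lowest, and in noglu B2M, HLA-B, HLA-C, HLA-E, TAP2, TAPBP, TAP1, NLRC5 and HLA-F. In lactate the libraries of TAP1 and TAPBP overlapped, as did those of TAPBP and TAP2 and those of HLA-F and NLRC5. In noglu only HLA-E and TAP2 overlapped among neighbours. HLA-B was above 96.2% of tested rows in lactate and 90.7% in noglu, and HLA-F was above 43.9% in lactate and 24.8% in noglu.

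**Figure D3:**
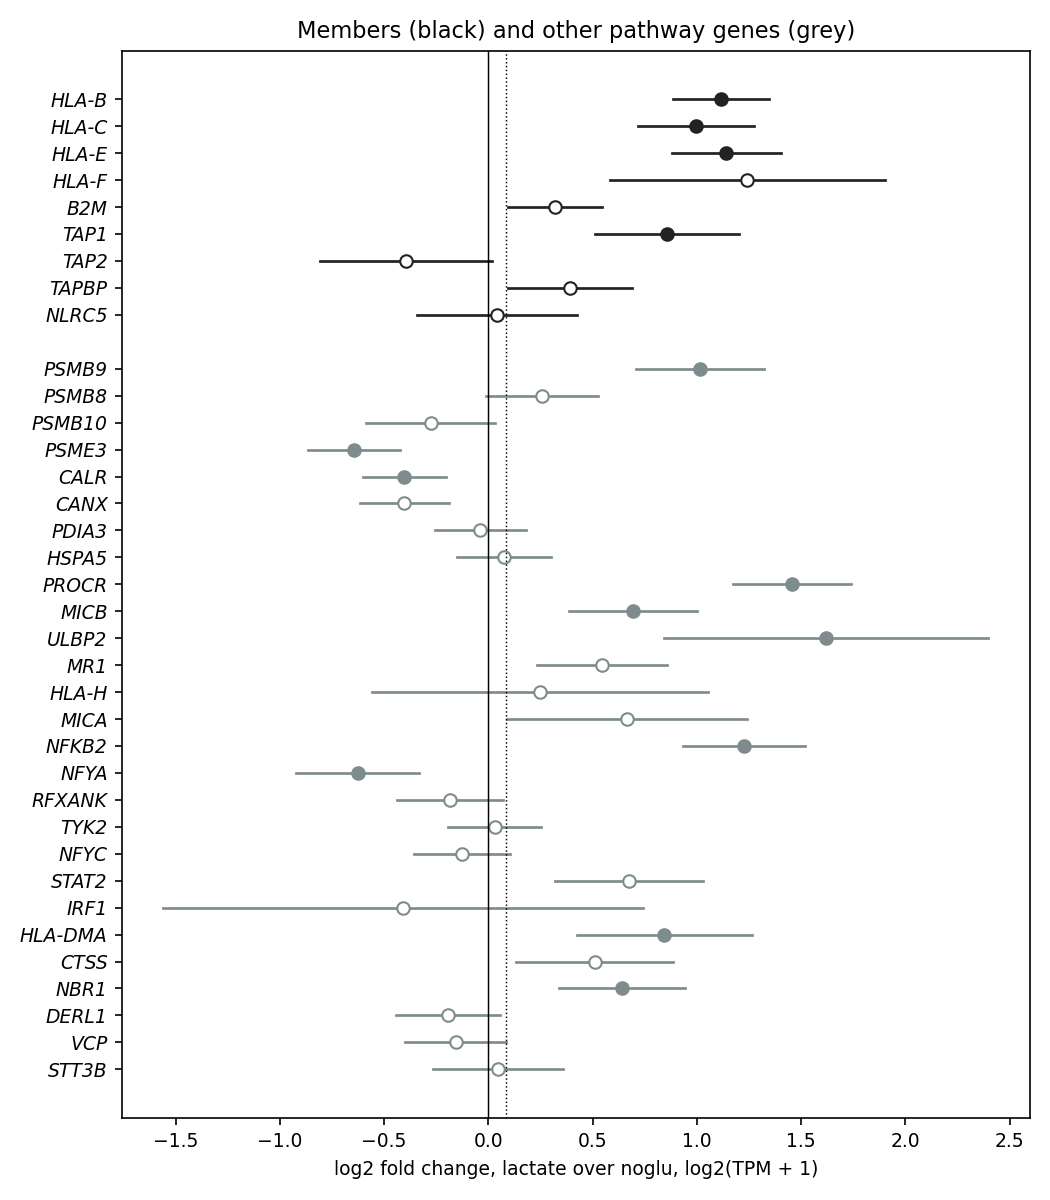
Log2 fold change of lactate over noglu on the log2(TPM + 1) scale with its 95% interval for the 9 members (black) and for other pathway genes (grey), filled where called at a limma adjusted p under 0.05; the dotted line is the median of all tested rows, 0.08. HLA-B, HLA-C, HLA-E and TAP1 are filled at 0.86 to 1.14, and PSMB9 lies beside them at 1.02.

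Among the genes that supply, trim and load peptides, PSMB9 rose and CALR and PSME3 fell. Of 17 such genes, all tested, 1 was called up, against 4.69% of all tested rows. That count would fall below that share with 1 gene fewer. Another 2 were called down, against 1.9%, and 14 were not called. The median log2 fold change of the 17 was -0.08. The gene called up was PSMB9, an interferon-inducible catalytic subunit that replaces PSMB6 in the immunoproteasome. PSMB9 had 31.05 and 27.24 TPM in lactate, against 14.40 and 13.38 TPM in noglu, a log2 fold change of 1.02 ± 0.12 (SE; limma adjusted p = 0.0308). Its ratio to PSMB6 was 0.173 and 0.169 in lactate, against 0.0773 and 0.0770 in noglu. PSMB9 (chr6:32854192-32859851, plus strand) stands head to head with TAP1, with 488 bases between the annotated starts, and the ratio of PSMB9 to TAP1 was 1.12 and 0.867 in lactate, against 0.993 and 0.771 in noglu, which overlapped. In GENCODE 29 the PSMB9 model also runs across TAP1 on the opposite strand. Whether reads were counted by strand is not given in the sources used here, so likeness between TAP1 and PSMB9 cannot be told apart from shared reads.

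The other immunoproteasome subunits, named here after their values had been seen, were not called. PSMB8, which lies between TAP2 and TAP1, had 38.80 and 36.57 TPM in lactate, against 32.82 and 29.99 TPM in noglu (log2 fold change 0.26, limma adjusted p = 0.190). PSMB10 had 26.60 and 29.10 TPM in lactate, against 31.48 and 36.56 TPM in noglu (log2 fold change -0.28, limma adjusted p = 0.212). The ratio of PSMB8 to its constitutive counterpart PSMB5 was 0.141 and 0.137 in lactate, against 0.108 and 0.0963 in noglu, and that of PSMB10 to PSMB7 was 0.114 and 0.125 in lactate, against 0.118 and 0.145 in noglu. The first ratio was higher in both lactate libraries and the second overlapped.

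Both genes called down have roles outside class I presentation. CALR encodes calreticulin, the lectin chaperone of the loading complex and of many other glycoproteins, and had 664.6 and 643.3 TPM in lactate, against 891.8 and 840.3 TPM in noglu (log2 fold change -0.40 ± 0.08 SE, limma adjusted p = 0.0496). PSME3, a nuclear proteasome activator, had 81.90 and 78.01 TPM in lactate, against 127.0 and 124.3 TPM in noglu (log2 fold change -0.65 ± 0.09 SE, limma adjusted p = 0.0328). CANX, the membrane-bound relative of calreticulin, had 404.2 and 430.5 TPM in lactate, against 567.9 and 536.0 TPM in noglu, and was not called (log2 fold change -0.40, limma adjusted p = 0.0546). Neither PDIA3, the thiol oxidoreductase of the loading complex, nor HSPA5, the major endoplasmic reticulum chaperone, was called, at log2 fold changes of -0.04 and 0.07.

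**Figure D4:**
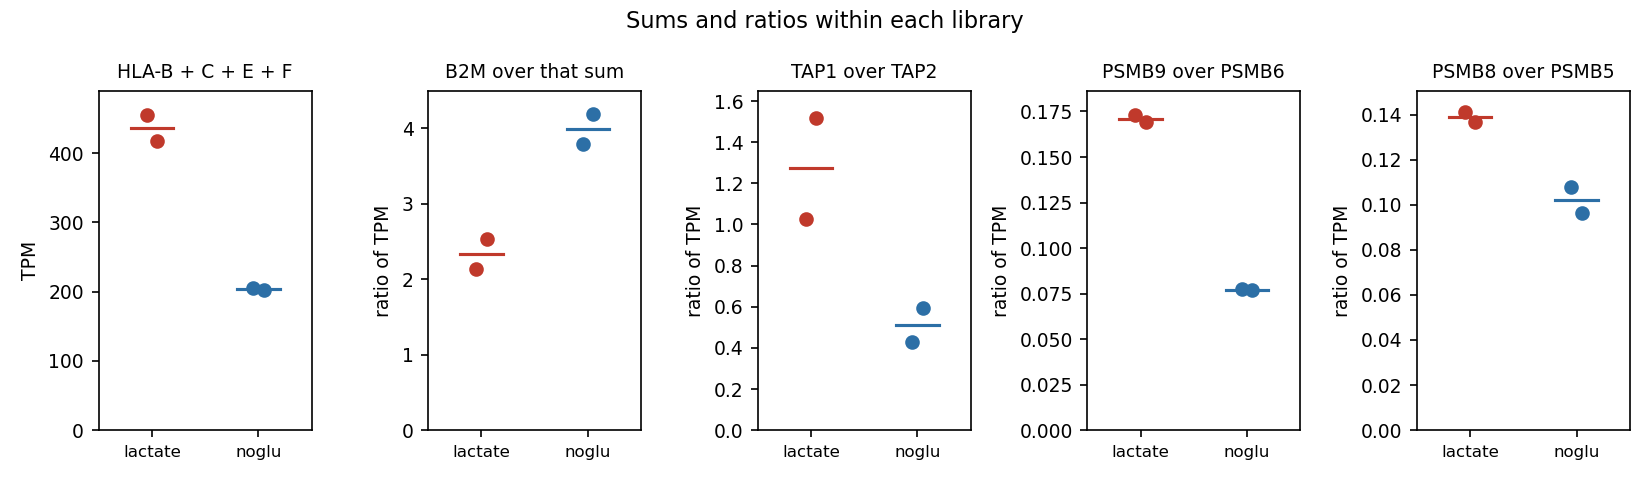
Sum of the 4 heavy chains in TPM and ratios of TPM within each library, with the lactate libraries (red) left of the noglu libraries (blue) and a line at each mean; every axis starts at 0. B2M per heavy chain is lower in both lactate libraries, whereas TAP1 over TAP2, PSMB9 over PSMB6 and PSMB8 over PSMB5 are higher in both.

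Of 16 class I-like genes, a list that also holds the HLA genes HLA-G, HLA-H and HLA-L, 9 were tested. HLA-H and HLA-L were among the 9, and reads may be exchanged between HLA genes. All 9 had a log2 fold change above 0, with a median of 0.69, whereas 40.8% of all tested rows were below 0. Of the 9, 3 were called up, against 4.69% of all tested rows, and none down, against 1.9%. PROCR, the receptor of protein C, had 33.32 and 32.81 TPM in lactate, against 12.05 and 10.81 TPM in noglu (log2 fold change 1.46 ± 0.11 SE, limma adjusted p = 0.0221). MICB and ULBP2 are ligands of the activating receptor NKG2D. MICB had 15.27 and 15.98 TPM in lactate, against 9.79 and 8.79 TPM in noglu (log2 fold change 0.69 ± 0.12 SE, limma adjusted p = 0.0425). ULBP2 had 3.30 and 3.39 TPM in lactate, against 0.78 and 0.12 TPM in noglu (log2 fold change 1.62 ± 0.31 SE, limma adjusted p = 0.0477). ULBP2 passed the filter through its lactate libraries, being under 1 TPM in both noglu libraries. MR1, which presents microbial vitamin metabolites, was not called, with 17.18 and 18.47 TPM in lactate, against 11.18 and 12.63 TPM in noglu (limma adjusted p = 0.0621), nor were the pseudogene HLA-H (limma adjusted p = 0.652) and the NKG2D ligand MICA (limma adjusted p = 0.137).

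Among regulators of class I transcription, NFKB2 rose and NFYA fell. Of 26 such genes, 25 were tested, 1 was called up, against 4.69% of all tested rows, and 1 was called down, against 1.9%, counts that 1 gene more or fewer would carry across those shares, and the median log2 fold change was 0.03. NFKB2, the precursor of the p52 subunit of NF-kB, had 69.10 and 66.07 TPM in lactate, against 26.17 and 30.57 TPM in noglu (log2 fold change 1.23 ± 0.12 SE, limma adjusted p = 0.0244). NFYA, a subunit of the complex that binds the Y box, had 15.57 and 15.17 TPM in lactate, against 25.86 and 22.77 TPM in noglu (log2 fold change -0.63 ± 0.12 SE, limma adjusted p = 0.0471). The uncalled genes of highest level were RFXANK and NFYC, which are subunits of the complexes on the X and Y boxes, and the Janus kinase TYK2, at log2 fold changes of -0.18, -0.13 and 0.03. IRF1, an interferon response factor named here after its values had been seen, was not called. IRF1 had 10.16 and 5.65 TPM in lactate, against 6.53 and 16.38 TPM in noglu, and the groups overlapped.

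Class II genes were mostly near 0. Of 14 class II genes, 12 stayed under 1 TPM in every library, among them the transactivator CIITA at 0.28 to 0.51 TPM. HLA-DMA, a chain of the class II peptide editor, had 10.21 and 8.67 TPM in lactate, against 4.30 and 5.35 TPM in noglu, and was called up (log2 fold change 0.84 ± 0.17 SE, limma adjusted p = 0.0499). The protease CTSS was not called, with 13.18 and 15.59 TPM in lactate, against 8.97 and 10.64 TPM in noglu (limma adjusted p = 0.102).

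Of 15 genes that act on the turnover of surface class I, 14 were tested, with a median log2 fold change of 0.03. Of the 14, 1 was called up, against 4.69% of all tested rows, and none was called down, against 1.9%. Either count would cross its share with 1 gene more or fewer. NBR1, an autophagy receptor that delivers class I to lysosomes in pancreatic cancer cells, had 33.90 and 38.99 TPM in lactate, against 22.12 and 23.84 TPM in noglu (log2 fold change 0.64 ± 0.12 SE, limma adjusted p = 0.0469). DERL1 and VCP, which extract proteins from the endoplasmic reticulum for degradation, and the glycosyltransferase subunit STT3B were not called, at log2 fold changes of -0.20, -0.16 and 0.05. The calls among these other pathway genes came from the same fit, in which 0 to 6 rows remained called up and 0 to 2 called down when any 1 library was left out.

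Among 67 tested genes of these lists, the 3 whose log2(TPM + 1) values over the 4 libraries lay nearest to the median profile of the 9 members were STAT2 (Euclidean distance 0.166), a subunit of the interferon-activated factor that binds the ISRE, HLA-DMA (0.196) and NBR1 (0.223). STAT2 itself was not called (log2 fold change 0.68, limma adjusted p = 0.0547). These distances rest on 4 libraries and are given as a description.

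**Figure D5:**
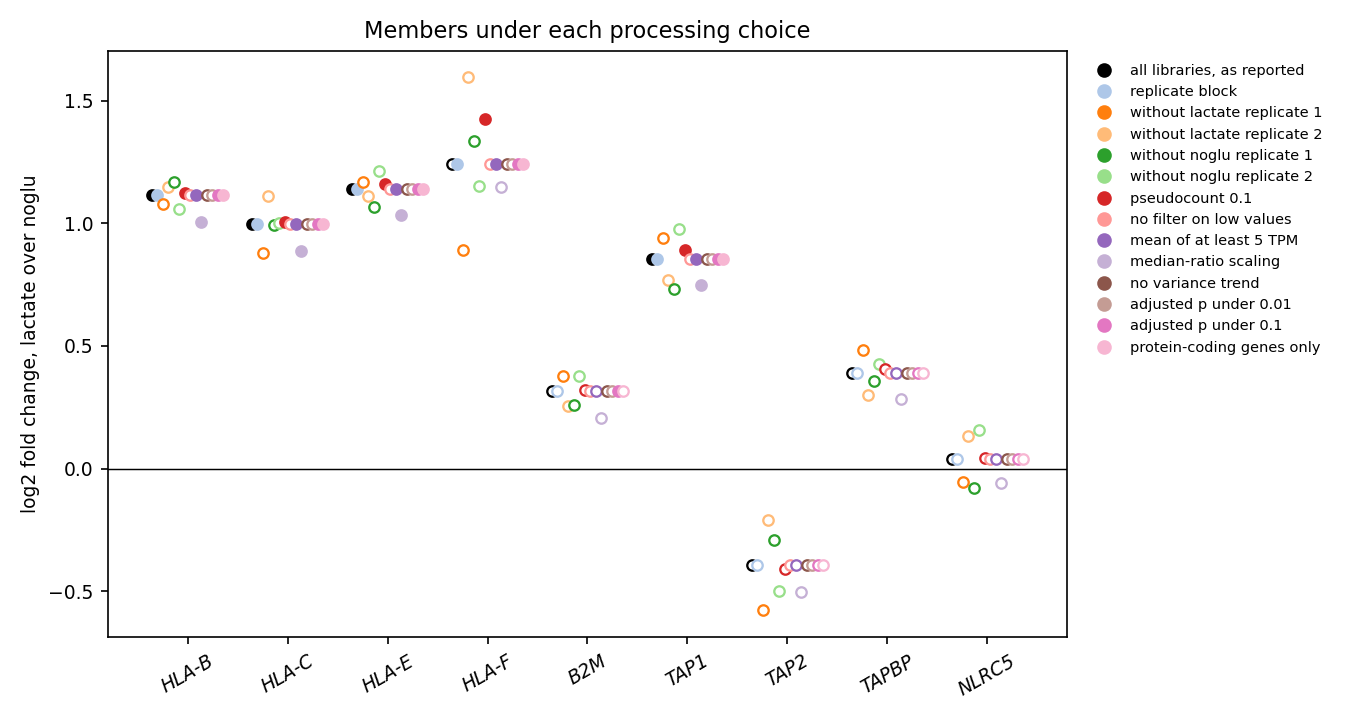
Log2 fold change of each member under the reported processing (black) and under each alternative (colors), filled where called at that alternative's threshold. HLA-B, HLA-C, HLA-E and TAP1 stay above 0.7 throughout but are open whenever 1 library is left out, and also without the filter, without the variance trend and at an adjusted p under 0.01, and NLRC5 lies on both sides of 0.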

How the data were processed

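RNA-seq was performed on HGC27 cells, 2 lactate and 2 noglu samples, grouped by the labels. The authors deposited 1 table of TPM per gene and library. The submitters' processing notes name RSEM 1.3.3 and hg38, while the aligner, annotation and strand setting were not given in the sources used here. TPM keeps no depth, so no counting error could be given. RSEM divides reads shared between genes by estimation, which matters for HLA genes. The methods text read here gives no test for these data. Rows averaging 1 TPM or more were tested as log2(TPM + 1) with limma 3.58.1 (eBayes with trend, R 4.3.3), adjusted over all tested rows by Benjamini-Hochberg and called under 0.05. The fit was tested on simulated data. Fold changes on this scale understate the change of low genes. Nothing in the labels says that the samples came from different cultures. The p-values therefore reflect spread among these samples, which may be technical. The members and lists were chosen with earlier results of these data known. All 9 members were named, and from each list of pathway genes every called gene up to 4 a direction, up to 3 uncalled genes of highest mean TPM, and the 3 genes most like the members in pattern. Other names are stated as chosen after their values were seen. Some single genes of the lists are not reported here. Alternatives were the replicate block, each library left out, another pseudocount, other filters, scaling, variance prior and thresholds.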

Additional observations from a re-analysis of the deposited data

How the results depend on the processing

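With each library left out in turn, the lone sample being assumed to vary like the other group, members called up numbered 0 to 0, rows called up 0 to 6 and rows called down 0 to 2. Members called up numbered 0 also without a filter on low values (0 rows up and 0 down of 30146 by limma, with 5072 at an unadjusted p under 0.05), without a variance trend (2 rows up, 2 down) and at an adjusted p under 0.01 (0 up, 1 down). The limma adjusted p of HLA-B, HLA-C and HLA-E was then 0.108 without the filter and 0.0598 without the trend, and that of TAP1 was 0.120 and 0.0722. HLA-F joined the calls, making 5 members up, with a pseudocount of 0.1, a minimum mean of 5 TPM (442 rows down), in protein-coding genes only (1519 rows up, 566 down; chosen after seeing the data) and with a replicate block (log2 fold change 1.24, adjusted p = 0.0457). At an adjusted p under 0.1, B2M joined too, making 6 (1765 rows up, 727 down). Median-ratio scaling gave 377 rows up. The log2 fold change of NLRC5 was -0.060 under that scaling and lay between -0.080 and 0.16 with each library left out, below 0 without lactate replicate 1 (-0.05) and without noglu replicate 1 (-0.080); each other member kept its direction in all 13 alternatives. The cause of these changes was not tested. The labels number the replicates but do not say whether the numbers pair the samples. The deviations of the replicates numbered 1 correlated at 0.035 over the tested rows, a single value that cannot decide it. With the replicate block 822 rows were called up and 385 down, against 706 and 286 without it. TPM keeps no depth, so counting error cannot be given, and each group rests on 2 libraries.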
